A study of Mus musculus with 6 samples.

Results

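Genes that fold, hydroxylate and trim procollagen were measured in whole lungs of ob/ob mice, which lack leptin, after treatment with leptin or saline. The members were 10 genes, chosen by name: Serpinh1, P4ha1, P4ha2, P4hb, Plod1, Plod2, Plod3, Pcolce, Bmp1 and Ppib. All probe sets whose platform annotation gives a member as the only symbol were taken, which gave 17 probe sets of 22690 on the array, and 10 of 10 genes were represented. The animals of both groups were females of the strain B6.V-Lepob/J, about 1 month old, which carry the obese mutation of the leptin gene and make no functional leptin. One group was given leptin and the other saline, with 3 Affymetrix Mouse 430A arrays of whole-lung total RNA each. Every label gives 1 animal and 1 lung sample. The sources used here give no dose, route or duration of the treatment. Saline replicate 1 was kept apart, and the members' values and the medians of the gene lists described below are given without it and with it.

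A collagen molecule is built in the endoplasmic reticulum from chains whose prolines and lysines are hydroxylated before they wind into a triple helix. Prolyl 4-hydroxylase makes the helix stable at body temperature, lysyl hydroxylases prepare the sites of later cross-links, and the chaperone HSP47 holds the finished helix until it leaves the compartment. Outside the cell, the procollagen C-proteinase cuts off the carboxy-terminal propeptide so that fibrils can form. In the growing lung, fibroblasts and smooth muscle cells lay down most of the fibrillar collagen of the alveolar septa, vessels and airways.

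In the lungs given leptin, Serpinh1, the gene of HSP47, read higher than on saline replicates 2 and 3 with both of its probe sets, by 0.60 ± 0.15 and 0.41 ± 0.13 (log2 difference ± SE; 3 leptin and 2 saline arrays). P4ha1 and Pcolce had smaller positive differences, from 0.23 to 0.34. The tested probe sets of P4hb, Plod1, Plod3, Ppib, P4ha2 and Bmp1 lay between -0.22 and 0.05. Further probe sets of Bmp1, too dim to be tested, were at 0.30 and 0.72 in a fit without a filter. The brighter Plod2 probe set, at 0.25 ± 0.23, followed a split between the saline arrays. No member passed the adjusted threshold of 0.05 in limma, a linear model fitted across all probe sets with moderated variances. With saline replicate 1 included, the differences of 13 of 15 tested probe sets were positive, and 13 of 15 read lower on that array than on any other.

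The upstream sequences of 8 of the 10 genes are held in RefSeq's table for the build GRCm38.p6, and those of Bmp1 and Plod2 were not matched. Printed here are the 250 bases before the annotated start of Serpinh1, the member with the largest difference without saline replicate 1 by its brightest probe set, of P4ha1, the next by that measure, and of P4hb and Ppib, which work in the same compartment and had differences near 0 or below. All are written 5′ to 3′ on the gene's strand. Capitals mark every match, on either strand, to CCAAT, to CCACG and to ACGTG. The first pair are the parts of the endoplasmic reticulum stress element, and ACGTG is a core of the hypoxia response element. The windows lie at chr7:99353240-99353489 (minus strand), chr10:59323046-59323295 (plus), chr11:120573254-120573503 (minus) and chr9:66059919-66060168 (plus).
Serpinh1: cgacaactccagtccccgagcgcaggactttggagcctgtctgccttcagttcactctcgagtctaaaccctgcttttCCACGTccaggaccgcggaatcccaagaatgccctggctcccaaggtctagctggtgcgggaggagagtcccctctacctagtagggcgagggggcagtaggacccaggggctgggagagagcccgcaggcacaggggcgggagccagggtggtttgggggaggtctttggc
P4ha1: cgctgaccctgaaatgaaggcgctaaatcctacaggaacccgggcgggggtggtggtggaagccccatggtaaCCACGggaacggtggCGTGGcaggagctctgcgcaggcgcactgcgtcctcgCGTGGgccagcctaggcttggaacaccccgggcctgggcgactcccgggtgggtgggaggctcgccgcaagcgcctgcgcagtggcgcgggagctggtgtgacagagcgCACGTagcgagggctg
P4hb: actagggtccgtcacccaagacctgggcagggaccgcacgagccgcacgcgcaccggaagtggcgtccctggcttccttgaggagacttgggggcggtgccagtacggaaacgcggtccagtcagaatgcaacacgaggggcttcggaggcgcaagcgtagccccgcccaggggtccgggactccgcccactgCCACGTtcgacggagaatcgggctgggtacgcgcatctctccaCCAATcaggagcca
Ppib: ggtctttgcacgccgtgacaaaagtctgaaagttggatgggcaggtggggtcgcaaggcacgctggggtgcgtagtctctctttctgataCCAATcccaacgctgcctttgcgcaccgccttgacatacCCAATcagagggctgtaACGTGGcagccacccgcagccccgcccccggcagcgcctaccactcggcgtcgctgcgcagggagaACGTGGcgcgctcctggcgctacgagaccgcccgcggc
CCACG occurred in 6 of the 8 member windows and in 28.3% of 32851 windows of the same length, ACGTG in 6 of 8 and 16.6%, and CCAAT in 3 of 8 (P4hb, Plod3 and Ppib) and 33.8%. CCACG and ACGTG can share letters, as in the single CCACGT of Serpinh1 and of P4hb. The full endoplasmic reticulum stress element was in 0 of 8 windows and 0.113% of all, the paired heat shock unit GAANNTTC in 0 of 8 and 6.69%, and the GC box GGGCGG in 7 of 8 and 32.7%. The member windows held 55.6% to 70% G and C, above the median of 52.4% over all windows, so matches rich in G and C are read beside that. A match is a run of letters and not a measured binding site.

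The array of saline replicate 1 stood apart. Its log2 values correlated with those of the other 5 arrays at 0.438 to 0.447 (Pearson's r, taken over probe sets rather than independent samples), against 0.973 to 0.978 among those 5. Spiked-in control probe sets on it were a median 30-fold above the median of the other arrays. Its beta-actin 3′ probe set read 1643 against 18527 to 19541. The beta-actin 5′ probe set read 281.8 against 15136.6 to 17193.5, a larger drop than at the 3′ end. Sftpc, the surfactant protein C gene of alveolar type II cells, read 23964 to 29732 on the 5 arrays and 4087 on saline replicate 1. Ager, a gene of alveolar type I cells, read 8443 to 11743 on the 5 arrays and 523 on saline replicate 1, where it stood at the 64.8 percentile. Scgb1a1, a gene of airway club cells, went the other way, at 18473 to 22288 on the 5 arrays and 68880 on saline replicate 1. Whether the deposited values of that array come from a lung treated as labelled was not tested. The member probe sets had a median percentile of 83.6 to 88.5 among the probe sets of each of the 5 arrays and of 52.7 on saline replicate 1. What the low readings of the members on that array come from was not tested.

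**Figure D1:**
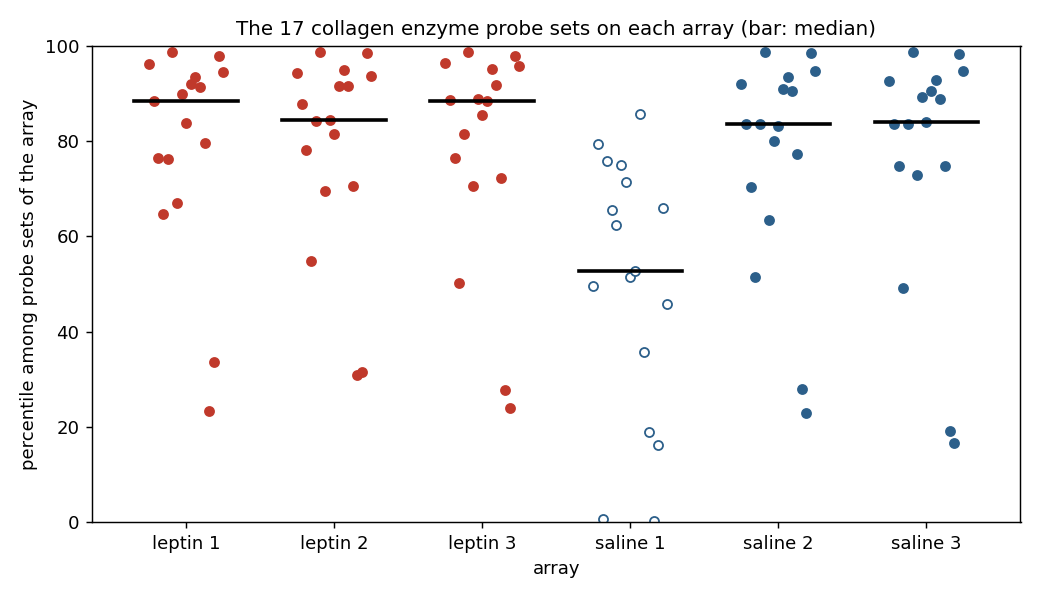
Each point is 1 of the 17 collagen enzyme probe sets, placed by its percentile among all non-control probe sets of an array (y axis, 0 to 100), for the 6 arrays (x axis); the bar is the median and open circles are saline replicate 1. The medians of the other 5 arrays lie between 83.6 and 88.5 and that of saline replicate 1 at 52.7.

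Of the 17 member probe sets, 15 passed the filter on dim probe sets and were tested, and the other 2 are dim probe sets of Bmp1. Without saline replicate 1, 0 of the 15 passed an adjusted p of 0.05 in limma, where 0.0442% of all 15838 tested probe sets passed. At an unadjusted p under 0.05, 2 of 15 were counted, both of Serpinh1 and both higher with leptin, against 4.6% of all tested probe sets in either direction and 2.61% higher and 1.98% lower. The groups did not overlap for 4 of 15, all higher with leptin (both of Serpinh1, the brighter of P4ha1 and the dimmer of Pcolce), against 19.6% of all tested probe sets, 9.92% higher and 9.66% lower. By gene, with each gene represented by its brightest tested probe set, 5 of 10 were higher and 5 lower, with a median log2 difference of 0.02. Over all 9365 genes taken the same way the median was -0.0073 and 48.3% were higher, and over all tested probe sets the median was 0.0012. The median of the members thus lay close to that of all genes.

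With all 6 arrays, 0 of 15 member probe sets passed the adjusted threshold, where 0% of all passed, and 0 were at an unadjusted limma p under 0.05, against 0.385% of all. The groups did not overlap for the same 4 probe sets, against 9.1% of all tested probe sets, 5% higher and 4.1% lower. By their brightest probe set, 8.87% of genes did not overlap. Saline replicate 1 was the lowest array for each of these 4 probe sets, as for 13 of the 15 tested. Adding it therefore could not make these 4 overlap, and their count on 6 arrays adds nothing to that without it. By gene, 9 of 10 were higher and the median was 0.72, against 51.0% and 0.02 over all 9419 genes. Without saline replicate 1 the median of the members was 0.02, as given above. The stated rule of the series sets a minimum fold of 1.5, a p below 0.05 and 6 of 9 pairwise comparisons of that size. It was met by 0 member probe sets on 6 arrays, where 0.202% of all met it, and, with 4 of 6 comparisons asked for, by 1 without saline replicate 1, the brightest of Serpinh1, where 0.492% of all did.

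**Figure D2:**
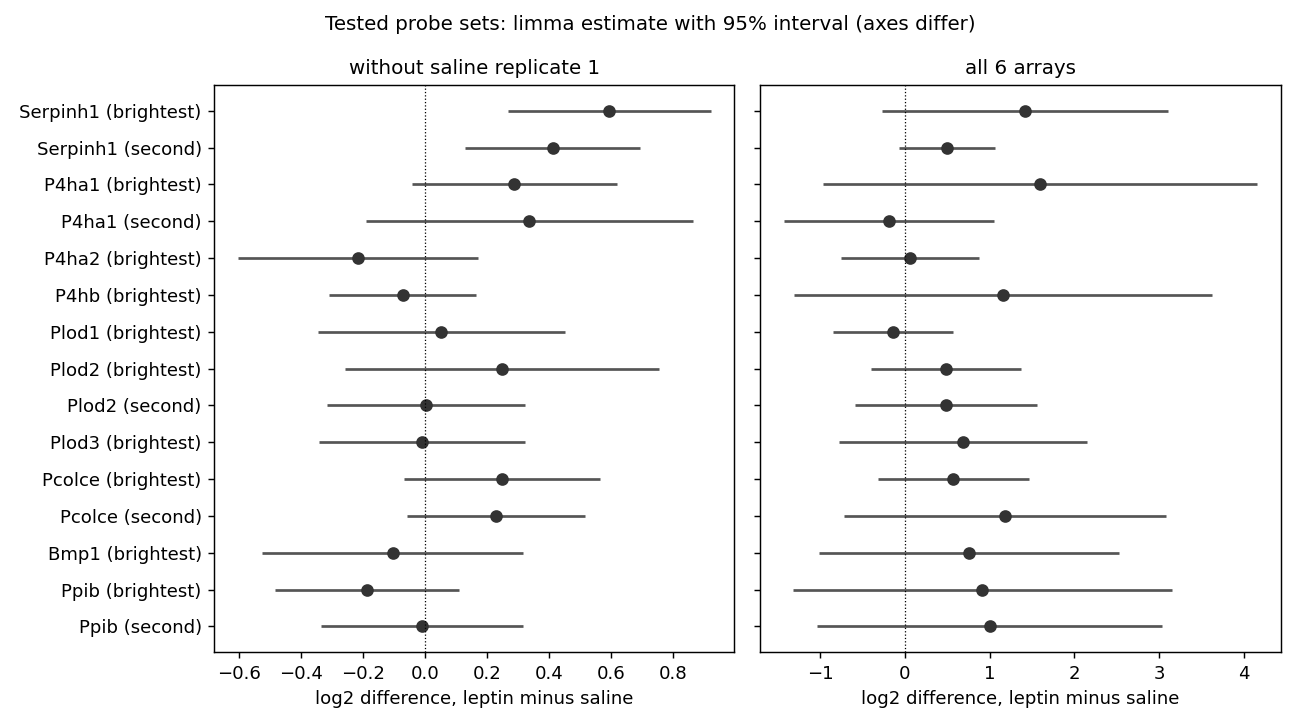
Each point is the limma log2 difference, leptin minus saline (x axis), of 1 of the 15 tested probe sets (y axis, by gene and brightness), with its 95% interval, without saline replicate 1 on the left and with all 6 arrays on the right; the x axes differ. On the left the intervals of the 2 Serpinh1 probe sets lie above 0 (0.27 to 0.92 and 0.13 to 0.70), and on the right every interval spans 0.

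Serpinh1 (Entrez Gene 12406) encodes HSP47, the collagen-specific chaperone. Its brightest probe set read 2993.6, 2337.2 and 3160.2 on leptin replicates 1 to 3, 1792.8 and 1910.3 on saline replicates 2 and 3, and 320.3 on saline replicate 1. The lowest leptin array, replicate 2, thus lay above the highest saline array. The leptin mean was 2830 ± 435 (SD, n = 3). The saline mean was 1852 ± 83.1 (SD, n = 2), a 1.51-fold difference on the log2(intensity + 22) scale. By the limma fit the adjusted p was 0.540. Over the alternatives tried, that adjusted p ranged from 0.213 to 1.00 and the log2 difference from 0.51 to 0.73. The comparison of 1.5-fold was met in 4 of the 6 pairs of a leptin and a saline array.

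The second Serpinh1 probe set, of a design class whose probes may also match other transcripts, read 1305.9, 1254.3 and 1327.9 with leptin, against 965.3 and 971.2 for saline replicates 2 and 3. On saline replicate 1 it read 809.8, which was less far from the other saline arrays than for the brightest probe set. The leptin values were close to each other, at 1296 ± 37.8 (SD, n = 3), and all above the saline values, with a 1.33-fold difference (limma adjusted p = 0.924). With all 6 arrays the 2 probe sets were at 1.41 ± 0.70 and 0.50 ± 0.23 (adjusted p = 0.715 for both). Both probe sets measure RNA of the same animals, so their agreement in direction is not a second set of samples. In whole lung, more cells that make a transcript and more RNA per cell cannot be told apart.

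**Figure D3:**
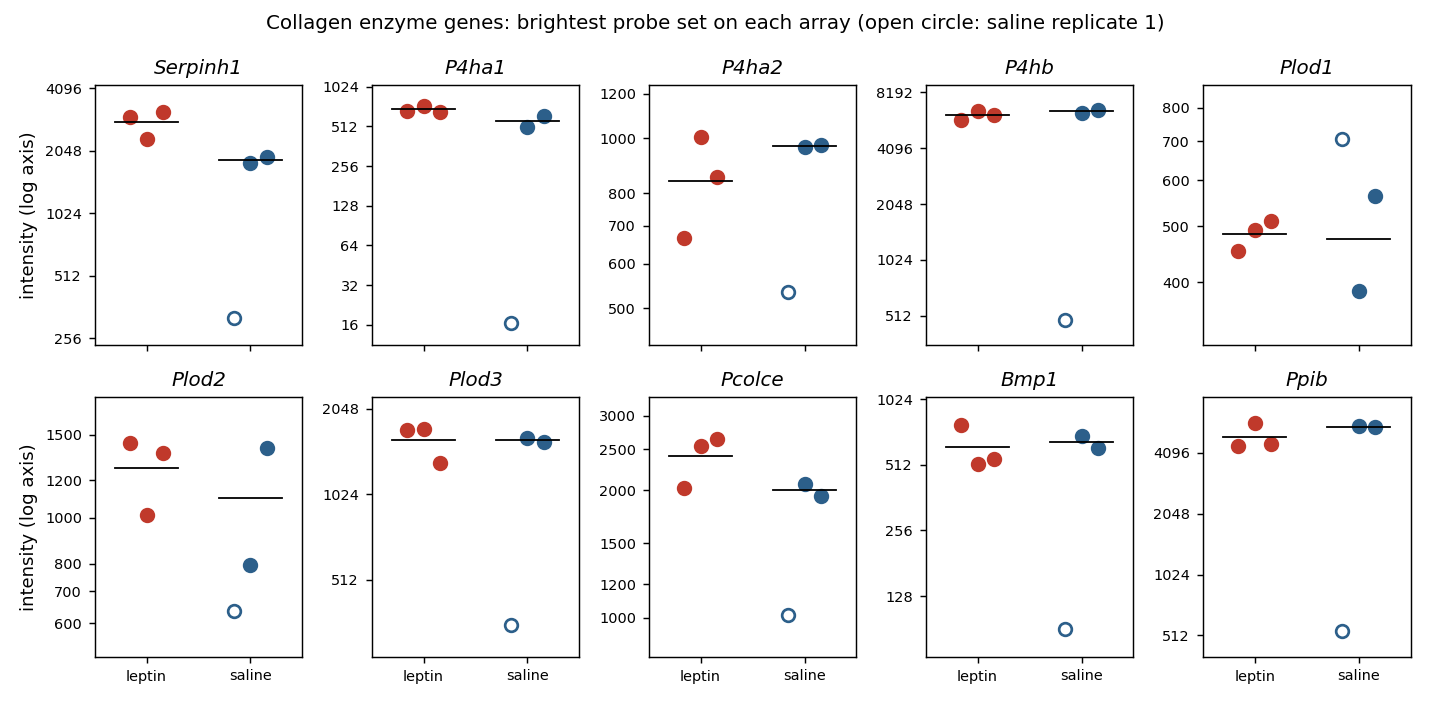
Each panel is 1 gene and shows the intensity of its brightest probe set on each array (y axis, log scale, range set per gene) for 3 leptin and 3 saline arrays; the bars are means without saline replicate 1, which is the open circle. Serpinh1 and P4ha1 are the panels in which the filled points of the groups do not overlap, and saline replicate 1 is the lowest point in all panels but that of Plod1.

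Ppib (Entrez Gene 19035) encodes cyclophilin B, the prolyl isomerase of the endoplasmic reticulum that works in the collagen prolyl 3-hydroxylation complex and speeds helix folding. Its brightest probe set read 4420.8, 5740.8 and 4515.9 with leptin, 5569.8 and 5498.7 on saline replicates 2 and 3, and 541.2 on saline replicate 1. Leptin replicate 2 was the highest of all arrays and the other leptin arrays were below both saline arrays, so the groups overlapped. The difference was -0.19 ± 0.13 with a 95% interval of -0.48 to 0.11 (limma adjusted p = 1.00). The second probe set is of the same design class as the second of Serpinh1, so its probes may also match other transcripts. It read 2275.0, 2138.8 and 2904.5 with leptin against 2416.5 and 2452.2, with 279.0 on saline replicate 1, and was at -0.0096 ± 0.15. A difference as large as that estimated for the brightest Serpinh1 probe set lies outside both Ppib intervals, the second of which runs from -0.34 to 0.32. That estimate has its own spread, and both Serpinh1 intervals (0.27 to 0.92 and 0.13 to 0.70) overlap the second Ppib interval, though not the first. The difference between the genes was not tested. With saline replicate 1 the 2 probe sets turned to 0.91 ± 0.93 and 1.0 ± 0.84.

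Prolyl 4-hydroxylase joins catalytic alpha subunits, of which P4ha1 is the main form and P4ha2 another, with beta subunits from P4hb. P4hb (Entrez Gene 18453) is also protein disulfide isomerase and serves many secreted proteins besides collagen. Its probe set read 5843.8, 6487.7 and 6173.7 with leptin, 6383.6 and 6578.3 on saline replicates 2 and 3, and 487.0 on saline replicate 1. One leptin array lay between the saline arrays and the other leptin arrays below them. The difference was -0.07 ± 0.11, with the narrowest 95% interval of the tested member probe sets, -0.31 to 0.17. On 6 arrays it turned to 1.15 ± 1.02.

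P4ha1 (Entrez Gene 18451) was measured by 2 probe sets. The brightest read 674.1, 727.0 and 660.0 with leptin, 510.4 and 610.2 on saline replicates 2 and 3, and 16.4 on saline replicate 1. All leptin arrays lay above all saline arrays, and the difference of 0.29 ± 0.15 had an interval of -0.04 to 0.62 (limma adjusted p = 1.00). The second probe set read 415.4, 271.7 and 224.5 with leptin against 243.7 and 214.0, and its difference of 0.34 ± 0.24 was 0.10 without leptin replicate 1, its highest leptin array. On saline replicate 1 this probe set read 725.4, the highest of its 6 values, while the other read lowest there. Accordingly the 6-array differences had opposite signs, at 1.59 ± 1.06 and -0.19 ± 0.51.

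P4ha2 (Entrez Gene 18452), the alternative alpha subunit, read 665.5, 1004.2 and 855.7 with leptin, 965.3 and 971.9 on saline replicates 2 and 3, and 534.1 on saline replicate 1. The leptin arrays were spread, with replicate 1 the lowest and replicate 2 above both saline arrays, so the groups overlapped. Its difference was -0.22 ± 0.18 (interval -0.60 to 0.17, limma adjusted p = 1.00), and 0.06 ± 0.34 on 6 arrays. The 2 alpha subunit genes thus had opposite signs without saline replicate 1, and the difference between them was not tested.

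The 3 lysyl hydroxylases differ in the lysines they act on: Plod1 works mainly in the helix, Plod2 in the telopeptides that carry stiff cross-links, and Plod3 also adds sugars to hydroxylysine. Plod1 (Entrez Gene 18822) read 452.9, 491.9 and 511.1 with leptin, 386.2 and 562.8 on saline replicates 2 and 3, and 707.6 on saline replicate 1. The leptin values lay inside the saline range, and the difference was 0.05 ± 0.18 (interval -0.35 to 0.45). Plod3 (Entrez Gene 26433) read 1722.3, 1734.5 and 1318.7 with leptin against 1614.3 and 1565.3, with 356.8 on saline replicate 1, and was at -0.0091 ± 0.15 (interval -0.34 to 0.32). For both genes the means of the groups were nearly equal, at 485 and 475 for Plod1 and at 1592 and 1590 for Plod3.

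Plod2 (Entrez Gene 26432) gave different values with its 2 probe sets. The brightest read 1439.9, 1016.3 and 1372.4 with leptin, 796.3 and 1407.8 on saline replicates 2 and 3, and 636.4 on saline replicate 1. Its difference of 0.25 ± 0.23 (limma adjusted p = 1.00) depended on which saline array was kept, at -0.16 without saline replicate 2 and 0.65 without saline replicate 3. The second read 973.4, 865.4 and 1079.3 with leptin against 937.5 and 997.2, with 342.5 on saline replicate 1, and was at 0.0028 ± 0.15. This second probe set showed no split between the saline arrays, so no direction can be read for Plod2. On 6 arrays Plod1, both Plod2 probe sets and Plod3 were at -0.14 ± 0.29, 0.49 ± 0.37, 0.48 ± 0.44 and 0.69 ± 0.61.

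Bmp1 and Pcolce act outside the cell. Bmp1 (Entrez Gene 12153) encodes the procollagen C-proteinase, a metalloproteinase. Its brightest probe set read 783.5, 514.4 and 546.9 with leptin, 696.9 and 608.8 on saline replicates 2 and 3, and 90.1 on saline replicate 1. Leptin replicate 1 was the highest array and the other leptin arrays were below the saline arrays, and the difference was -0.10 ± 0.19 (interval -0.53 to 0.32). The 2 dim probe sets fell below the filter and read 71.2, 96.7 and 82.4 with leptin against 86.7 and 45.2, and 123.4, 100.3 and 66.4 against 65.4 and 34.7, with 11.1 and 79.6 on saline replicate 1. In a fit without a filter they were at 0.30 ± 0.30 and 0.72 ± 0.32 (limma adjusted p = 0.998 for both), opposite in sign to the brightest probe set. On 6 arrays the brightest was at 0.76 ± 0.73.

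Pcolce (Entrez Gene 18542) encodes the enhancer that binds the propeptide and raises the activity of the C-proteinase. Its brightest probe set read 2025.5, 2549.5 and 2637.1 with leptin, 2073.5 and 1941.0 on saline replicates 2 and 3, and 1017.4 on saline replicate 1. Leptin replicate 1 lay between the saline arrays and the other leptin arrays above them, and the difference was 0.25 ± 0.14 (interval -0.07 to 0.57). The second probe set read 1642.0, 1733.0 and 1758.7 with leptin against 1565.1 and 1353.9, with 183.5 on saline replicate 1, so its groups did not overlap. Its difference was 0.23 ± 0.13 (interval -0.06 to 0.52), and both had a limma adjusted p of 1.00. With the replicate number as a block the brightest was at 0.37, with an unadjusted limma p under 0.05. Its limma adjusted p was 0.624 there, against 1.00 for the highest of its alternatives. In that fit leptin replicate 1, the lowest leptin array, has no partner. The estimate of 0.37 is therefore the same as with that array left out, and is not a separate check. On 6 arrays the 2 probe sets were at 0.57 ± 0.37 and 1.18 ± 0.79.

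The substrates were compared by the same fit. Of 7 tested fibrillar collagen genes, 5 were higher with leptin and 2 lower without saline replicate 1, with a median log2 difference of 0.34. At an unadjusted limma p under 0.05, 4 were higher, against 2.26% of all genes by their brightest probe set (2.02% lower), and 0 passed the adjusted threshold, against 0.0534%. Col1a1, the main chain of type I collagen, read 2147.9, 2423.6 and 2045.0 with leptin against 1425.1 and 1462.8, with 83.3 on saline replicate 1 (0.60 ± 0.13, adjusted p = 0.327). Its partner chain Col1a2 was at 0.53 ± 0.15 and Col3a1, of the type III fibrils of elastic tissues, at 0.71 ± 0.16 (adjusted p = 0.763 and 0.401). For the type V chains that regulate fibril diameter, Col5a1 was at 0.34 ± 0.15 and Col5a2 at 0.28 ± 0.13. The groups did not overlap in any of these 5 genes, against 19.9% of all genes. The other tested probe sets of Col1a1, Col1a2, Col3a1 and Col5a2 were at 0.37, 0.40, 0.51 and 0.02, and those of Col5a1 at 0.30 and 1.08. With saline replicate 1, Col1a1, Col1a2, Col3a1, Col5a1 and Col5a2 were at 1.87, 0.66, 1.29, 0.13 and 0.11, and the median of the 7 genes was 0.13.

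Of 19 tested genes of other collagen types, 16 were higher and 3 lower (median 0.20), with 4 higher and 0 lower at an unadjusted p under 0.05, against 2.26% and 2.02% of all genes. With all 6 arrays the split was 10 higher and 8 lower of 18 (median 0.16). Col6a3, of the beaded filaments, was at 0.55 ± 0.13 and Col15a1, of basement membranes, at 0.98 ± 0.31 (limma adjusted p = 0.463 and 0.961). These collagens and Serpinh1 were measured on the same 5 arrays, and the saline arrays are shared by all of these differences.

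The other enzymes of the pathway were divided in sign. Of 8 tested genes of prolyl 3-hydroxylation, sugar transfer and further prolyl isomerases, 4 were higher and 4 lower (median 0.01), with 0 at an unadjusted p under 0.05 and 0 past the adjusted threshold in limma. Those with the smallest p were the isomerase Fkbp11, at -0.51 ± 0.24, and Fkbp7, at 0.25 ± 0.15. Fkbp11 read 110.7, 186.2 and 179.2 with leptin against 227.1 and 232.9, and its other probe set was at -0.05. Genes of procollagen export from the endoplasmic reticulum were higher in 4 of 9 (median -0.05). With all 6 arrays 6 of the 8 enzymes (median 0.17) and 8 of the 9 export genes (median 0.33) were higher. Mia3, whose product loads procollagen into transport carriers, was at 0.29 ± 0.14 and the coat subunit Sec31a at -0.30 ± 0.17.

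Of 6 tested genes of processing and cross-linking outside the cell, 5 were higher (median 0.13), and 0 were at an unadjusted p under 0.05. Pcolce2, the second C-proteinase enhancer, read 2849.0, 2992.3 and 2652.4 with leptin against 2421.9 and 2330.2 (0.25 ± 0.12), and Sparc, a collagen-binding matricellular protein, was at 0.16 ± 0.10. Both had groups that did not overlap, as 19.9% of all genes had, and both were at a limma adjusted p of 1.00. Among 7 genes of collagen breakdown and proline recycling 4 were higher (median 0.01). Mmp2, a gelatinase, read 1632.1, 1321.6 and 1408.6 with leptin against 1062.2 and 993.4 (0.49 ± 0.14, limma adjusted p = 0.834). It was the 1 of the 7 at an unadjusted limma p under 0.05, where 2.26% of all genes were higher and 2.02% lower. Mrc2, a collagen uptake receptor, was at 0.19 ± 0.14. The 6-array medians of the processing and breakdown lists were 0.45 and -0.04.

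General chaperones and disulfide enzymes of the endoplasmic reticulum were divided, with 10 of 19 higher and 9 lower (median 0.04) and 0 at an unadjusted p under 0.05. Pdia3, an isomerase for glycoproteins, was at 0.23 ± 0.12 and Creld2 at 0.35 ± 0.20 (limma adjusted p = 1.00 for both). Other cyclophilins were higher in 2 of 5 (median -0.04), with Ppic at 0.17 ± 0.13 and Ppil2 at 0.15 ± 0.15. Hypoxia-responsive genes, a class that includes several prolyl and lysyl hydroxylases, were higher in 7 of 16 (median -0.04). Of these 16, 1 was higher and 1 lower at an unadjusted limma p under 0.05, against 2.26% and 2.02% of all genes. Vegfa, the endothelial growth factor, was at 0.33 ± 0.12, and Ddit4, which restrains mTOR, at -0.87 ± 0.16 (adjusted p = 1.00 and 0.166). On 6 arrays the medians of these 3 lists were 0.55, 0.25 and 0.36.

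**Figure D4:**
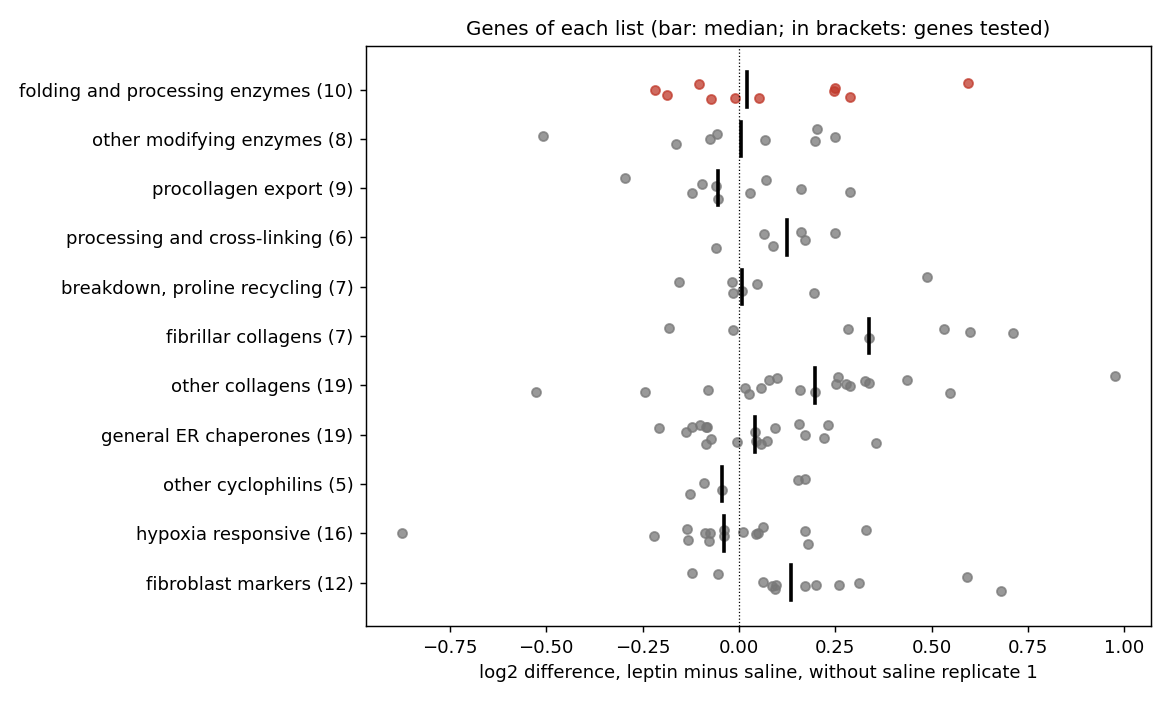
Each point is 1 gene by its brightest tested probe set, placed by its limma log2 difference, leptin minus saline, without saline replicate 1 (x axis), in rows by list (y axis, number of genes tested in brackets); the bar is the median. The median of the folding and processing enzymes lies at 0.02 and that of the fibrillar collagens at 0.34, and the rightmost enzyme is Serpinh1 at 0.60.

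Markers of cells that make collagen were set beside Serpinh1, and 0 of them passed the adjusted threshold in limma. Of 12 fibroblast markers, 10 were higher with leptin (median 0.13, and 0.45 on 6 arrays), with 3 higher and 0 lower at an unadjusted p under 0.05, against 2.26% and 2.02% of all genes. They included Mfap4 at 0.59 ± 0.15 and Lum at 0.68 ± 0.23. Their summed intensity ran from 35775 to 39516 with leptin, was 34346 and 30512 on saline replicates 2 and 3 and 15513 on saline replicate 1, and no marker was at 0. Smooth muscle and pericyte markers were higher in 6 of 10 (median 0.14, and 0.24 on 6 arrays). At an unadjusted limma p under 0.05, 2 were higher and 0 lower, against 2.26% and 2.02% of all genes. Cnn1 was at 0.50 ± 0.18 and Myh11 at 0.42 ± 0.15, while Pdgfrb was at -0.42 ± 0.23 and Rgs5 at -0.27 ± 0.16. Their sums of 12903 to 15307 with leptin overlapped the 13452 and 12392 of saline replicates 2 and 3. The part of these cells in the Serpinh1 difference was not tested.

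Of the markers of skeletal tissue that a lung sample could carry, 3 of the 10 cartilage genes and 3 of the 6 bone genes on the array were bright enough to be tested. The median of the tested genes was 0.16 for cartilage and 0.18 for bone, and -0.29 (2 genes tested) and -0.35 on 6 arrays. Snorc was at 0.23 ± 0.35 and Chad at -0.10 ± 0.17. The cartilage sums were 954 to 1212 with leptin, against 1018 and 1048 for saline replicates 2 and 3. The bone sums were 491 to 608 against 452 and 471, with Sp7, an osteoblast transcription factor, at 0.61 ± 0.25 and Alpl, alkaline phosphatase, at -0.32 ± 0.24 (limma adjusted p = 1.00 for both). On saline replicate 1 the cartilage and bone sums were 3496 and 2298, and no marker of either list was at 0. Low intensities ran higher on that array. Its dimmest 10% of probe sets reached up to 57, while on every other array they ended between 16.3 and 19.2. Whether the sums on saline replicate 1 come from skeletal tissue was not tested. Epithelial, endothelial, macrophage, lymphocyte, cardiac muscle and adipocyte lists had medians from -0.11 to 0.14. On 6 arrays their medians ran from -0.09 (adipocyte) to 0.92 (alveolar type I), with alveolar type II at 0.91 and endothelial at 0.71. The 3 tested erythroid markers were lower without saline replicate 1 (median -0.79, and -0.16 on 6 arrays). There Alas2, of haem synthesis, was the 1 gene of all lists here past the adjusted threshold in limma (-1.20 ± 0.15, adjusted p = 0.0496). No probe set passed that threshold under quantile or common-median scaling, with a pseudocount of 1, without the filter, with the replicate block or without the variance trend, so this call was lost there. With all 6 arrays Alas2 was at 1.12 ± 1.86 (limma adjusted p = 0.765).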

How the data were processed

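Total RNA of lungs was amplified from an oligo(dT) primer and hybridised to Affymetrix Mouse 430A arrays, per the labels' protocols. The deposited values are linear probe set intensities. The trimmed mean of each array (2% off each end) was 500.10 to 500.14, which shows scaling to 1 target, and the summarisation software is not given in the sources used here. Such scaling raises all values of a weakly labelled array. For arrays, their number limits the precision.

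Control probe sets (64) were dropped. Of the remaining 22626, 20380 have 1 gene symbol, 691 several and 1555 none. Symbols were checked by Entrez Gene ID against RefSeq (GRCm38.p6), which changed 0 and lacked 29. No build is named for the arrays. Intensities were turned into log2(intensity + 22), with the 10th percentile as pseudocount, so folds of dim probe sets come out too small, and the lowest 30% by mean were left out. The test of the other 15838 was limma (version 3.58.1, under R 4.3.3; trended eBayes, leptin minus saline, two-sided, Benjamini-Hochberg adjusted p), on 6 arrays and without saline replicate 1. Groups follow the sample titles. The p-values set a difference against the spread between samples of a group, in limma with variances moderated across all tested probe sets. The fit was tested on simulated data. The series' rule names no test, and a 2-sample test with pooled variance was used.

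Members, gene lists and tests were chosen with earlier results of these data known. The naming rule takes all members, the 5 fibrillar chains and, per list, genes past the threshold or the 2 with the smallest p. For the epithelial, endothelial, blood, cardiac and adipose lists only medians of the differences are given apart from Alas2, which was decided with the values in view, as was naming Pdgfrb and Rgs5. Sftpc, Ager and Scgb1a1, of the epithelial lists, are named outside this rule, only to describe saline replicate 1.

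The labels do not say that replicate numbers pair animals. After subtraction of group means over all 6 arrays, arrays with the same number correlated at 0.103 to 0.144, against -0.147 to 0.049 for other pairs. Saline replicate 1 enters the saline means, and deviations from a shared mean depend on each other. These correlations therefore cannot decide whether the numbers pair animals. Block fits were run as alternatives.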

Additional observations from a re-analysis of the deposited data

How the results depend on the processing

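The settings tried changed the scaling (quantile, common median), the pseudocount (1 or 79.9), the filter (none or 50%), the model (replicate block, array weights, no variance trend), the threshold (0.10), the summary by gene (averaged probe sets) and the arrays (each left out). No member probe set passed the adjusted threshold under any of them, in either fit, and the series' rule gave 1 without saline replicate 1. Both Serpinh1 probe sets kept their direction and an unadjusted p under 0.05 in all of these fits without saline replicate 1. Counts of members at that p were 2 there and 0 on 6 arrays. Under the alternatives, which for this count were added after seeing the data, they were 2 to 3 there, and on 6 arrays 0 except for 2 under array weights and 2 without saline replicate 1. The replicate block, without saline replicate 1, gave 3, with 0.55 and 0.41 for Serpinh1. It turned Plod2's second probe set to -0.00046 and that of Ppib to 0.034. These estimates equal those with leptin replicate 1 left out, which has no partner in that fit, so the settings are not separate checks. The block changed no adjusted call of a member.

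Without saline replicate 1, the median of the members (0.02) ran from -0.052 to 0.085 when another array was left out as well. Quantile normalization turned Plod3 to 0.00050, and a common median and array weights turned the second Plod2 probe set to -0.012 and -0.0054. Leaving out another array gave ranges that crossed 0 for Plod1 (-0.21 to 0.31), the Plod2 probe sets (-0.16 to 0.65 and -0.073 to 0.082), Plod3 (-0.076 to 0.12), Bmp1 (-0.29 to 0.0075) and the second Ppib probe set (-0.14 to 0.078). Where 1 saline array remained, it was assumed to vary like the leptin arrays. The 7 probe sets past the threshold over all genes became 0 under either scaling, with a pseudocount of 1, without the filter, with the block or without the trend, and 0 to 3 without a further array. The cause was not tested.

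On 6 arrays, weights (0.0257 for saline replicate 1, 1.64 to 2.98 for the others) turned the second P4ha1 probe set to 0.29, P4ha2 to -0.18, P4hb to -0.041, Plod1 to 0.11, Bmp1 to -0.14 and the brightest Ppib probe set to -0.15, and the median to 0.05. A common median turned Plod1 to 0.0055. Leaving out each array gave ranges that crossed 0 for the second P4ha1 probe set (-0.49 to 0.34), P4ha2 (-0.22 to 0.22), P4hb (-0.072 to 1.78), Plod1 (-0.37 to 0.053), Plod3 (-0.0091 to 1.05), Bmp1 (-0.10 to 1.24) and both Ppib probe sets (-0.19 to 1.47 and -0.0096 to 1.51). The median ran from 0.02 to 1.14, the lowest without saline replicate 1.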
